A study of Mus musculus with 2 samples.

Results

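The T cells and innate lymphoid cells of the mouse colon were taken from 2 droplet single-cell libraries as the barcodes that held at least 3 UMIs (unique molecular identifiers, which count RNA molecules) in the sum of Cd3d, Cd3e, Cd3g, Il7r and Icos, and at most 1 UMI each of Cd79a, Epcam and Col1a1. The rule chose 63 of the 1026 cells that had at least 1000 UMIs, at least 200 genes and under 10% mitochondrial UMIs. A member was called a T cell when its Cd3d, Cd3e and Cd3g UMIs summed to at least 2, and innate lymphoid-like otherwise. This gave 40 T cells and 23 innate lymphoid-like cells. All cells came from the colon of wild-type C57BL/6 mice. The THC library followed Δ9-tetrahydrocannabinol, a cannabinoid of the cannabis plant, given at 10 mg/kg, and the other library was the vehicle control. How many mice gave each library, of what sex and age, and when they were dosed, is not stated in the labels. With 1 library per group no difference could be set against the spread between replicates, so no test was made and no p-value is given.

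T cells recognise antigen through a receptor that signals through the CD3 chains, whose genes are Cd3d, Cd3e and Cd3g. Innate lymphoid cells lack that receptor and respond to cytokines through receptors such as the interleukin-7 receptor, and they are grouped by what they secrete: interferon-gamma (group 1), interleukins 4, 5 and 13 (group 2), or interleukins 17 and 22 (group 3). In the gut wall both kinds of cell can reside for long periods, within the epithelium or in the lamina propria beneath it, where they take part in defence against microbes and worms, tissue repair and tolerance.

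The members were shallower than the rest of the cells. The THC library gave 396 cells with a median of 8598.5 UMIs and the vehicle library 630 cells with a median of 7122, against medians of 3807.5 and 3506 UMIs in the members. The deposited THC matrix listed 737280 barcodes and the vehicle matrix 973, so cell calling preceded deposit for the vehicle library only. The same limits were applied to both. No barcode was shared by the cells of the 2 libraries. Just below the entry sum of 3 lay 5 THC and 4 vehicle cells with a sum of 2, and just inside it lay 2 THC cells and 0 vehicle cells with a sum of 3. Around the split, 2 vehicle members had a Cd3 sum of 1, no member had a sum of 2, and 1 THC and 3 vehicle members had a sum of 3.

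A set of 7 barcodes held transcripts that went against their label. Of the 23 innate lymphoid-like barcodes, 6 held many transcripts of MHC class II genes, whose products present antigen, and so did 1 of the 40 T cells. The summed UMIs of Cd74, H2-Aa and H2-Ab1 were at most 2 in the other 24 THC members and at most 7 in the other 32 vehicle members, with medians of 0. In the 4 THC barcodes of this kind the sum ran from 127 to 1060 with a median of 782, and in the 3 vehicle barcodes it was 254, 323 and 682. The gap left no barcode in between, and the plot of these sums shows it. The macrophage transcript Lyz2 was found in all 7, with 173 UMIs (THC) and 41 (vehicle). The macrophage genes C1qb, with 145 and 39 UMIs, and Csf1r, with 20 and 5, were found in the 4 THC barcodes and in 2 of the 3 vehicle barcodes. All 3 genes were at 0 in the other 56 members. The vehicle barcode of 10668 UMIs held 1 UMI of Lyz2, 0 of C1qa and 4 of Flt3, a receptor of dendritic cells and their precursors. Icos was at 0 in all 7, whereas Il7r was present with 13 UMIs in 3 of the 4 THC barcodes and with 18 UMIs in the 3 vehicle barcodes. The T cell among them was the largest member, with 19242 UMIs. It also held a Cd3 sum of 10 UMIs and 2 UMIs of the T cell receptor gene Trbc2, so it carried transcripts of both kinds. The scrublet doublet caller marked 2 cells of each library and no member. No doublet was removed, and the part of doublets in these 7 barcodes was not tested. They are called MHC class II-rich below, and results are given over the other 56 members unless all 63 are named.

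**Figure D1:**
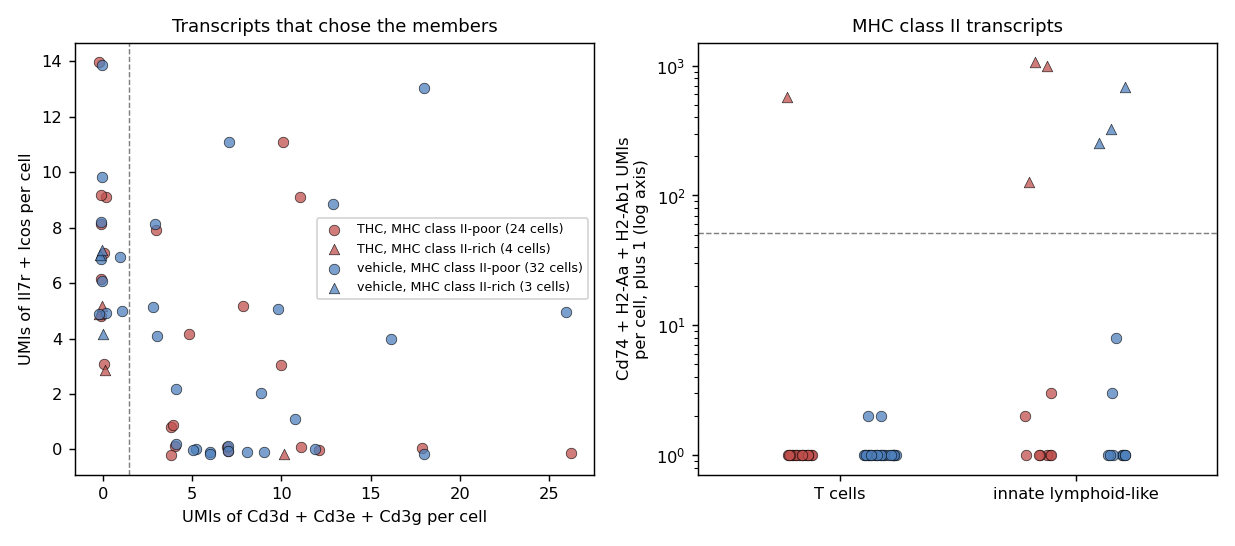
Each point is 1 of the 63 members, with a small random shift in the left panel; the left panel plots the UMIs of the 2 groups of genes that chose the members, with the split between innate lymphoid-like and T cells as a dashed line, and the right panel plots summed MHC class II UMIs plus 1 on a log axis, with the limit of 50 UMIs dashed. Triangles mark the 7 MHC class II-rich barcodes, of which 6 lie among the innate lymphoid-like cells.

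Marker sums of the 56 remaining members differed between the labels, with exceptions in single cells. The 8-gene T cell list, which includes the 3 CD3 chains of the rule, summed to 237 UMIs in the 16 THC T cells and 318 in the 23 vehicle T cells, and all 8 genes were detected in each library. In the innate lymphoid-like cells it summed to 13 UMIs in 8 THC cells and 24 in 9 vehicle cells, with Cd3e, Cd3g and Trac at 0. The 9-gene innate lymphoid list summed to 104 and 114 UMIs in those 8 and 9 cells (2874 and 3196 CPM, UMIs scaled to a sum of 1e+06 per library), and to 76 and 87 UMIs in the 16 and 23 T cells (1122 and 1075 CPM). A vehicle innate lymphoid-like cell of 2809 UMIs held T cell receptor transcripts, with 6 UMIs of Trdc, 3 of Tcrg-C1 and 4 of Trbc2, and 1 of Cd3d. Another, of 2426 UMIs, held 1 each of Cd3d, Cd4 and Trbc2 and 8 of Ccl5. Macrophage-defining Lyz2, C1qa, Csf1r and Cd68 were at 0 in all 56, as were the B cell genes Ms4a1 and Pax5. Other genes of the same lists were present. From the macrophage list, Fcer1g had 58 UMIs in 11 THC and 56 in 12 vehicle cells, and Tyrobp 21 in 5 and 24 in 7. From the B cell list, Cd37 had 39 UMIs in 18 THC and 42 in 24 vehicle cells, and Cd79b had 2 in 2 THC cells. Because the lists share genes with the rule, these values describe the choice of cells and support nothing further.

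Beyond the genes of the rule, the members stood out by receptors, adaptors and secreted products of lymphocytes. Among 1992 genes measured in all members, 251 (12.6%) were at least 4-fold higher than in the other cells of both libraries, and without the MHC class II-rich barcodes 238 of 1498 (15.9%) were. Cd7, a surface protein of T and natural killer cells, led them, with 115 UMIs in 10 of 24 THC members against 6 UMIs in all 368 other THC cells. In the vehicle library it had 85 UMIs in 14 of 32 members against 5 UMIs in 595 other cells. These made log2 ratios of CPM of 9.62 and 9.66. Next came Cd27, a co-stimulatory receptor, Cd8a, a chain of the CD8 co-receptor, and Nkg7, a protein of cytotoxic granules, whose log2 ratios were 9.27, 9.36 and 10.49 (THC) and 9.57, 9.03 and 8.64 (vehicle). Zap70, the kinase that binds the activated CD3 complex, had 28 and 31 UMIs in members and 3 and 2 in all other cells. The list of 15 also held Il2rb, a chain of the interleukin-2 and interleukin-15 receptors, the chemokine Xcl1 and the cytokine Il4. Since the members were chosen by measured transcripts, these are descriptions with no test.

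The T cells fell into a part with the chemokine Ccl5 and a part without it. Ccl5, which draws other leukocytes, was detected in 21 of 39 T cells, 8 of 16 in the THC and 13 of 23 in the vehicle library. Cd7 was found in 19 T cells, and all 19 held Ccl5. Fcer1g, a signalling adaptor of natural killer and some intraepithelial T cells, was found in 14, all of which held Cd7. Klrd1, a natural killer receptor chain, was in 17 of the 21 cells with Ccl5 and in 0 of the 18 without it, a count that allows a share of up to 16.7%. Such limits are 3 cells of the total and bound the cells with a UMI, not the cells that express the gene. Itgae, the integrin chain that anchors T cells to epithelium, was in 10 of 21 and 2 of 18, and Nkg7 was in 14 of 21 and 3 of 18. Xcl1, a chemokine that attracts cross-presenting dendritic cells, was found in 7 T cells, again all with Ccl5. The division by Ccl5 was chosen after the values were seen and is given as a description.

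The T cells without Ccl5 held other receptors. Tnfrsf4, the co-stimulatory receptor OX40, was in 10 of these 18 cells, 5 of each library, and in 0 of the 21 with Ccl5, a count that allows up to 14.3%. Icos, a co-stimulatory receptor, was in 14 of 18 against 2 of 21, and Il7r, the interleukin-7 receptor chain, also in 14 of 18 against 4 of 21, although both are genes of the rule. All 39 T cells had a Cd3 sum of at least 3 and met the entry sum without them. Rora, a transcription factor of tissue lymphocytes, was in 12 of 18 against 4 of 21. Depth was alike in both kinds: their medians, with and without Ccl5, were 3150.5 and 3657.5 UMIs after THC and 3390 and 2960 UMIs after vehicle. In 117 cells gated as B cells, with medians of 3182 and 3347 UMIs, Ccl5, Cd7, Klrd1, Nkg7, Itgae, Xcl1, Tnfrsf4 and Rora were all at 0, which allows up to 2.56%. Fcer1g was in 4 of those B cells.

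Co-receptors were detected in few T cells. Cd8a or Cd8b1, the chains of CD8, were found in 7 T cells, 4 THC and 3 vehicle, and 6 of the 7 held Ccl5 and Cd7. The same 7 cells all held Ikzf2, a transcription factor of regulatory and innate-like T cells, and 6 held Itgae. Over all 39 T cells Itgae was in 12. The share of Ikzf2 in the other T cells is not given here, so it cannot be read as particular to these 7. Among them, a THC cell of 5751 UMIs held 1 UMI of Cd8b1 beside 2 of Cd4 and 3 of Foxp3, a gene described below. That cell is counted among the cells with Cd4 too. Cd4, the co-receptor of helper cells, was also found in 7, again 4 THC and 3 vehicle, of which 0 held Cd7, a count that allows up to 42.9%, and 1 held Ccl5. Trac, the constant gene of the T cell receptor alpha chain, was detected in 18 of 39 T cells, and the gamma-delta genes Trdc or Tcrg-C1 in 5, with 1 cell in common. Trac was seen in 5 of the 117 B cells, and Cd4 in 1, so single UMIs of these genes do not identify a cell.

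Smaller sets of T cells carried further markers. Foxp3, the transcription factor that defines regulatory T cells, was in 6 T cells, 2 THC and 4 vehicle, and all 6 held the inhibitory receptors Ctla4 and Tigit. Tnfrsf4 was in 4 of the 6, and Ccl5 in 1. Over all 39 T cells Ctla4 was in 13, Tigit in 25 and Tnfrsf4 in 10, so none was confined to cells with Foxp3. Ccr7, the chemokine receptor that guides naive and central memory T cells to lymph nodes, was in 9 other T cells, 3 THC and 6 vehicle, and Foxp3 was in 0 of these 9, a count that allows up to 33.3%. Of these 9, 8 held the cytokine Ltb, and 7 each held Il7r, the transcription factors Klf2 and Tcf7 and the egress receptor S1pr1. Over all 39 T cells Ltb and Il7r were each in 18 and Klf2 in 16. Ccr7 is shared with B cells, where it was in 68 of 117. The plot of transcripts by T cell shows the sets side by side.

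**Figure D2:**
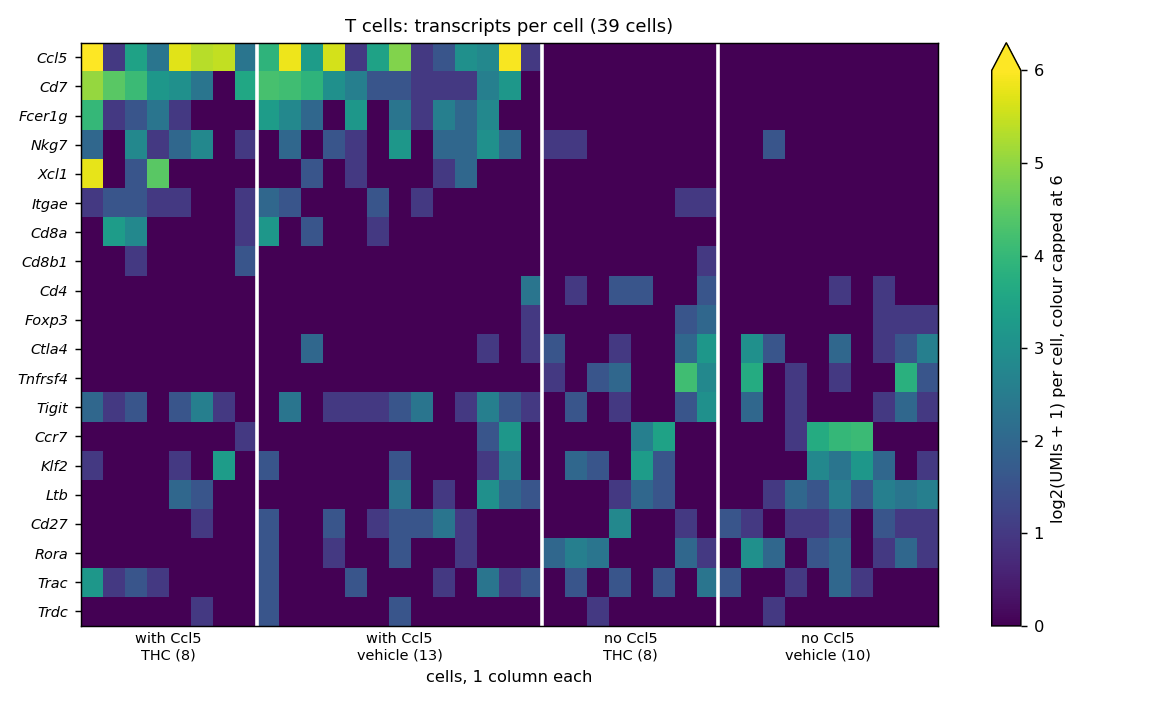
Each column is 1 of 39 T cells, in 4 blocks by Ccl5 and library with the number of cells in brackets, and colour gives log2(UMIs + 1), capped at 6. Cd7 and Fcer1g appear only in the blocks with Ccl5 and Tnfrsf4 only in the blocks without it.

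The innate lymphoid-like cells held a group with type 2 cytokines. Il5, the cytokine that sustains eosinophils, was detected in 5 of 17 of these cells, 2 THC and 3 vehicle. All 5 also held Gata3, the transcription factor of type 2 lymphocytes, Hs3st1, a heparan sulfate sulfotransferase, Rora and Icos. Rora and Icos were each in 16 of all 17 cells and did not set the 5 apart, and Icos is a gene of the rule. Gata3 was in 7 of the 17 cells and 9 of the 39 T cells, and Hs3st1 in 6 of the 17 and 0 of the 39. The member richest in Gata3 was a THC T cell of 6879 UMIs, which held 17. None of the 5 held Tyrobp, Fcer1g, Ncr1 or Trac, where a count of 0 allows up to 60%. Trac was at 0 in all 17 cells and did not set the 5 apart. All 5 held the T cell receptor beta genes Trbc1 or Trbc2, as did 13 of all 17. The division was chosen after the values were seen.

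The 5 cells differed from one another in the cytokine that dominated. A THC cell of 4466 UMIs held 56 UMIs of Il4 and 58 of Il13, which drive mucus and worm expulsion, but 2 of Il5. The other THC cell, of 4928 UMIs, held 37 of Il5, 7 of Il13, 1 of Il4 and 113 of the chemokine Ccl1. In the vehicle library a cell of 3356 UMIs held 22 of Il4, 18 of Il5 and 1 of Il13. Another, of 3573 UMIs, held 29 of Il5 and 1 of Il4, and the last, of 4468 UMIs, held 13 of Il5 and neither of the others. Calca, which encodes the neuropeptide CGRP, had 32, 38, 12 and 25 UMIs in the first 4 of these cells and 0 in the last. Single cells thus carried most of the UMIs: 1 cell held 56 of the 57 Il4 and 58 of the 65 Il13 UMIs of the THC group, and the other 37 of its 39 Il5 and 113 of its 116 Ccl1 UMIs.

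The 3 cytokine genes lie near one another on mouse chromosome 11, and since they were found in the same few cells their promoters are shown. Each sequence is the 250 bases before the RefSeq start of the gene in GRCm38.p6, at chr11:53618666-53618915 on the minus strand for Il4, at chr11:53634703-53634952 on the minus strand for Il13 and at chr11:53720544-53720793 on the plus strand for Il5. Capitals mark matches on either strand to the letters GATA with an A or T before them and an A or G after them.
Il4: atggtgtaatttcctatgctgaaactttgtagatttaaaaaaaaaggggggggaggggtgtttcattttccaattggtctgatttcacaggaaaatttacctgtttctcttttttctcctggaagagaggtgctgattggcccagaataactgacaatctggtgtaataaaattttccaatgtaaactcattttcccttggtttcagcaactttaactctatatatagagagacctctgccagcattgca
Il13: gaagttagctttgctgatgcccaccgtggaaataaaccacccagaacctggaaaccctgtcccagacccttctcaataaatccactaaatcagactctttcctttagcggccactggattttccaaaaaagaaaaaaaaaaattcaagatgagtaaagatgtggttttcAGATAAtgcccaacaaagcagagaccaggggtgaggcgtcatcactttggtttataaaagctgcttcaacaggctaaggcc
Il5: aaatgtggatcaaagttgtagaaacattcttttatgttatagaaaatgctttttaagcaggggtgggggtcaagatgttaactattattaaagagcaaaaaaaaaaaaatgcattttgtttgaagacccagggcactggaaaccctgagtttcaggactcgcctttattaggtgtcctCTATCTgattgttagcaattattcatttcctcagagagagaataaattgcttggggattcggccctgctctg
The Il4 window held no match, the Il13 window held 1, and the Il5 window held 1, read on the opposite strand. Such a match was present in 8718 of 32851 windows of RefSeq starts (26.5%), so a match is common and is a description of the letters, not of binding.

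Cells that shared Gata3 and Hs3st1 with these lay just outside the rule. Among cells with a rule sum of 1 or 2, 5 held at least 3 UMIs of Gata3 and at least 5 of Hs3st1, a criterion set after the values were seen. Of the 2 in the THC library, 1 held 9 UMIs of Il5, and the other, of 2725 UMIs, held 7 of Il4, 6 of Csf2, a growth factor of myeloid cells, and 17 of Ccl1. Of the 3 in the vehicle library, a cell of 4330 UMIs held 90 of Il5. A cell of 3379 UMIs held 24 of Csf2, 1 of Il13 and 29 of Areg, an epidermal growth factor-like repair factor. The last, of 4218 UMIs, held 15 of Csf2 and 1 of Il4. Il5 was not detected in these latter cells. Inside the rule, 1 of the 2 THC cells with Il5 and all 3 of the vehicle library met the same criterion; the THC cell of 4928 UMIs, with 2 UMIs of Gata3 and 4 of Hs3st1, did not. Inside and outside the rule together, cells that met it were 3 of 396 THC cells (0.758%, exact Clopper-Pearson 95% interval 0.157 to 2.2) and 6 of 630 vehicle cells (0.952%, 0.35 to 2.06). In all 963 other cells, which include these 5 barcodes, Il5 was found in 3, Il4 in 3, Il13 in 2 and Ccl1 in 2, and in the 39 T cells all 4 were at 0, which allows up to 7.69%.

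A larger group of innate lymphoid-like cells held the adaptors of natural killer receptors. Tyrobp or Fcer1g, which both carry activating signals, were detected in 9 of the 17 cells, 6 THC and 3 vehicle, and Il4, Il5 and Il13 were at 0 in all 9. All 9 held Il2rb and Rora, but over all 17 cells Il2rb was in 15 and Rora in 16, so neither set the 9 apart. Ncr1, the natural killer receptor NKp46, was in 4 of the 9. Il23r, the interleukin-23 receptor of group 3 cells, was in 3, and the cytokine Il22 in 2. Xcl1 was in 5, all of which held Tyrobp. Tyrobp and Fcer1g are also macrophage genes, and among 117 B cells they were in 23 and 4. One THC cell of this group, of 2994 UMIs, held 12 UMIs of the chemokine Ccl4, 17 of Ccl5 and 7 of granzyme B (Gzmb), a killing protease. The remaining 3 innate lymphoid-like cells were all from the vehicle library and held neither Il5 nor these adaptors, and 1 of them had 6 UMIs of Trdc. T cell receptor beta transcripts (Trbc1 or Trbc2) were present in 13 of the 17 cells, and Trac in 0, which allows up to 17.6%.

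**Figure D3:**
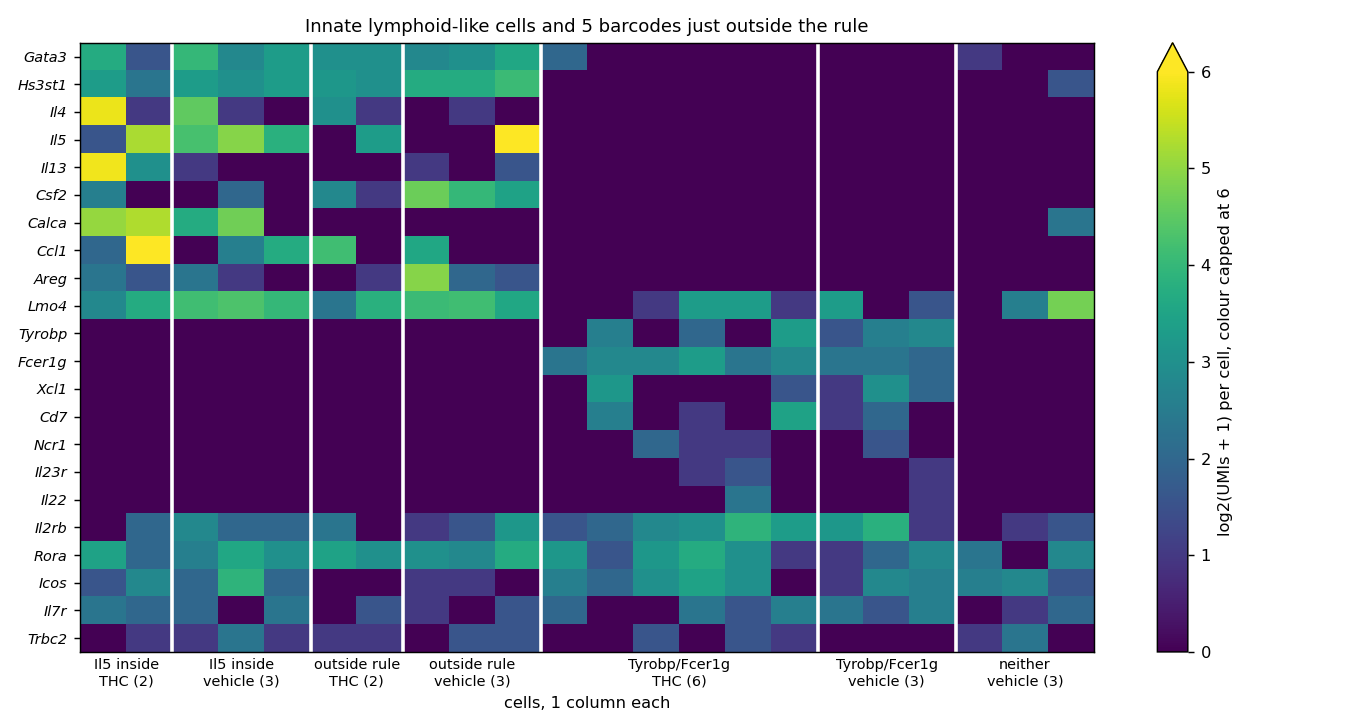
Each column is 1 of the 17 innate lymphoid-like cells or of the 5 barcodes just outside the rule, in blocks by their transcripts and library with the number of cells in brackets, and colour gives log2(UMIs + 1), capped at 6. Gata3 and Hs3st1 appear in every cell of the blocks inside and outside the rule on the left, where Il4, Il5 and Il13 vary from cell to cell. Tyrobp or Fcer1g appears in every cell of the next blocks to the right. The barcodes outside the rule were chosen by Gata3 and Hs3st1, and those next blocks by Tyrobp or Fcer1g. Their presence there follows from the choice.

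Set against the innate lymphoid-like cells, the T cells held more Ccl5, Tigit, Cd2 and Ccr7. Over all members 73 of 1247 measured genes (5.85%) were at least 2-fold higher in T cells of both libraries and 128 (10.3%) at least 2-fold higher in innate lymphoid-like cells. Without the MHC class II-rich barcodes these were 45 of 923 (4.88%) and 77 (8.34%). Ccl5 had 222 UMIs in T cells and 17 in innate lymphoid-like cells of the THC library, and 244 and 9 in the vehicle library, a pooled ratio of 8.67-fold. Tigit, an inhibitory receptor, was in 25 of 39 T cells and 2 of 17 innate lymphoid-like cells, and Cd2, an adhesion receptor, in 25 and 3. Ccr7 was in 9 of 39 and 0 of 17, which, with the floor of 3 UMIs in place of 0, was at least 11.3-fold higher. The cytotoxic genes Nkg7 and Gzmb were in 17 and 4 of the 39 T cells and in 10 and 1 of the 17 innate lymphoid-like cells.

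The innate lymphoid-like cells held transcripts of 3 kinds in excess. The type 2 products Ccl1, Il5 and Il4, with no UMI in T cells, were at least 91.7-fold, 68.3-fold and 55.2-fold higher, and rested on the 5 cells above. Lmo4, a transcriptional cofactor, was spread more widely, with 131 UMIs in 13 of 17 cells against 7 UMIs in 4 of 39 T cells. Cdkn1a, a cell cycle inhibitor, was in 14 of 17 against 2 of 39, Pxdc1 in 12 of 17 against 2 of 39, and Gem, a small GTPase, in 11 of 17 against 7 of 39. Their log2 ratios, T over innate lymphoid-like, were -5.27 for Lmo4, -4.86 for Cdkn1a, -5.83 for Pxdc1 and -4.07 for Gem, with the same direction in both libraries. Lmo4 was also in 133 of 362 cells gated as fibroblasts, at medians of 8771 and 7975 UMIs.

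The share of members did not separate the 2 libraries beyond counting error. Members were 28 of 396 THC cells (7.07%, exact Clopper-Pearson 95% interval 4.75 to 10.1) and 35 of 630 vehicle cells (5.56%, 3.9 to 7.64), and without the MHC class II-rich barcodes 24 (6.06%, 3.92 to 8.88) and 32 (5.08%, 3.5 to 7.1). With those barcodes included, T cells were 4.29% (THC) and 3.65% (vehicle) of all cells, and innate lymphoid-like cells 2.78% and 1.9%. Without them, T cells were 4.04% and 3.65%, and innate lymphoid-like cells 2.02% and 1.43%. Of all members, T cells were 60.7% (THC, 40.6 to 78.5) and 65.7% (vehicle, 47.8 to 80.9). Without the MHC class II-rich barcodes these shares were 66.7% (44.7 to 84.4) and 71.9% (53.3 to 86.3). All these intervals overlap and cover counting error only, not mice or preparations. The mitochondrial limit removed 232 THC and 281 vehicle barcodes, of which none met the rule. The rule genes had THC over vehicle log2 ratios from -0.80 for Cd3g to -0.19 for Il7r, which are given as a description.

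Between THC and vehicle, most measured genes of the members lay within 2-fold. In all 63 members 120 of 1240 measured genes were at least 2-fold apart (9.68%), 62 of them higher (5%) and 58 lower (4.68%) after THC. The median log2 ratio over all measured genes was -0.05. Without the MHC class II-rich barcodes 64 of 919 were (6.96%), 29 higher (3.16%) and 35 lower (3.81%). In T cells alone, also without their MHC class II-rich barcode, 45 of 532 were (8.46%), 16 higher (3.01%) and 29 lower (5.45%). With that 1 barcode the T cell count was 72 of 618. The balance of higher and lower genes depended on the scaling. TMM factors, which scale on the bulk of genes, gave 76 higher and 39 lower over all members and 39 higher and 24 lower without the MHC class II-rich barcodes. They raised every log2 ratio of the latter by 0.10, so values less than that below 0, or below either 2-fold limit, changed side. A measured gene had at least 30 UMIs over both libraries and was found in at least 10% of the cells of 1 library. Poisson intervals below are 95% and cover counting error only, and fewer cells of a kind and less RNA per cell cannot be told apart in such sums.

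The genes higher in the THC library included Serpinb9, Nr4a1 and Cd69. Serpinb9, an inhibitor of granzyme B, had 66 UMIs in 11 of 24 THC cells and 23 in 9 of 32 vehicle cells, a log2 ratio of 1.69 (0.98 to 2.44), and 1.75 without the richest cell of each library. Nr4a1, an early gene of receptor signalling, had 59 UMIs in 12 cells and 24 in 8, a ratio of 1.46 (0.76 to 2.21). Cd69, an early activation receptor that holds cells in tissue, had 33 UMIs and 17, a ratio of 1.12 (0.24 to 2.06), and among T cells it was in 7 of 16 against 2 of 23. In innate lymphoid-like cells it was in 4 of 8 THC and 7 of 9 vehicle cells, with 11 UMIs each. Rela, a subunit of NF-kappaB, had 23 UMIs in 15 cells and 9 in 8, a ratio of 1.52 (0.35 to 2.82). Vim, an intermediate filament gene, had 79 and 44 UMIs (1.01). Calca had 77 and 41 (1.07), of which 70 and 37 lay in the 2 THC and 3 vehicle cells with Il5. The chaperone Calr had 65 UMIs in 18 cells and 32 in 14, a ratio of 1.19. The histone gene H2afj, with 33 UMIs in 19 of 24 cells and 16 in 13 of 32, was spread over the most THC cells of these. The expected share of cells with a UMI after thinning each cell to 1000 UMIs was 42.9% and 19% for Calr, 28.9% and 14.8% for H2afj and 26.4% and 11.9% for Cd69. B cells and fibroblasts held Cd69 in 47 of 117 and 0 of 362 and Nr4a1 in 87 of 117 and 270 of 362.

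Several of the largest ratios rested on single cells. Xcl1 had 87 UMIs in 5 THC cells and 18 in 7 vehicle cells, a log2 ratio of 2.44 (1.69 to 3.26), but 54 of the 87 lay in 1 T cell of 11620 UMIs, and without the richest cells the ratio was 1.87. The same cell held all 8 UMIs of the proliferation gene Mki67 and all 10 of Top2a in the THC members. Hspa1a, a heat shock chaperone, had 39 and 6 UMIs (2.87, 1.62 to 4.40), of which 25 lay in 1 T cell of 3143 UMIs. That cell also held 38 of the 61 Jun UMIs, 22 of the 59 Nr4a1 UMIs and 8 of the 17 Ifng UMIs. Hspa1a was in 264 of the 362 fibroblasts, and how much of it reached these cells as free RNA was not tested.

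The genes lower in the THC library included Ltb, Ccr7 and Ctla4. Ltb, the cytokine lymphotoxin beta, had 11 UMIs in 5 of 24 THC cells and 50 in 17 of 32 vehicle cells, a log2 ratio of -2.02 (-3.11 to -1.06), with thinned shares of 9.14% and 30%. Ccr7 had 16 UMIs in 3 cells and 54 in 6 (-1.59, -2.49 to -0.76). Ctla4 had 14 UMIs in 4 cells and 33 in 12 (-1.07, -2.09 to -0.13). Of the 117 B cells, 47 held Ltb, 68 held Ccr7 and 9 held Ctla4. Fosl2, a subunit of the AP-1 transcription factor, had 33 UMIs in 15 cells and 90 in 25 (-1.28, -1.90 to -0.69), and Gimap4, a GTPase of lymphocyte survival, 30 in 14 and 78 in 24 (-1.21, -1.87 to -0.59). Nrip1, a nuclear receptor corepressor, had 16 UMIs in 9 cells and 45 in 18 (-1.33), and the chemokine Cxcl10 11 in 2 and 31 in 4 (-1.33). In T cells alone the co-stimulatory receptor Cd27 was in 3 of 16 THC and 15 of 23 vehicle cells, with 8 and 25 UMIs, and thinned shares of 8.04% and 28.8%. Cd27 was at 0 in the 117 B cells and the 362 fibroblasts. Lars2 and Gm42418 were among the lowest in T cells, with 18 against 91 and 303 against 1339 UMIs, and the value of Gm42418 turned on 1 THC innate lymphoid-like cell: over all 56 cells it was 0.02, and without the richest cell of each library -1.47.

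**Figure D4:**
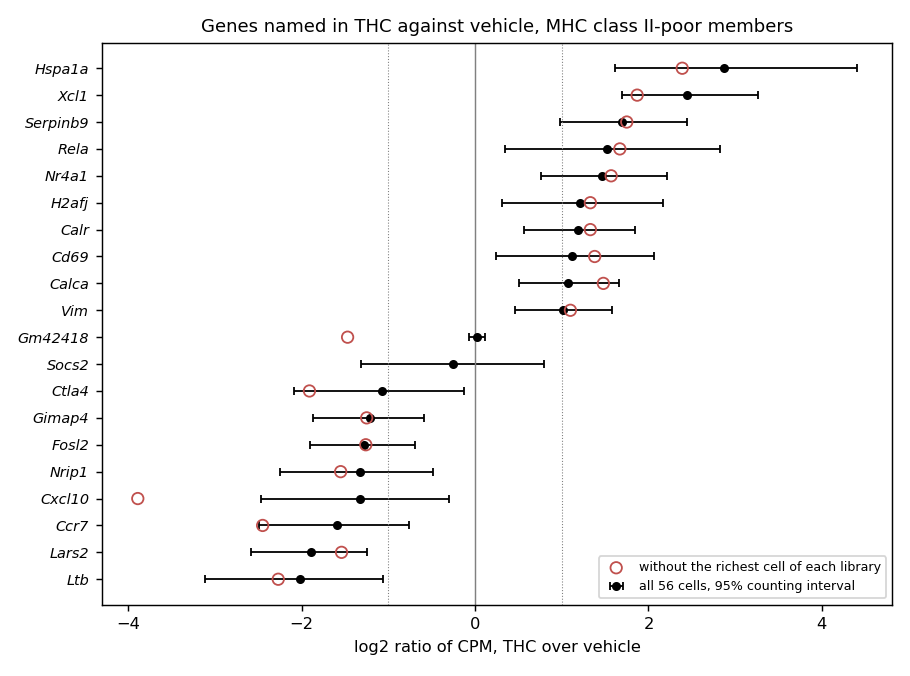
Black points are log2 ratios of CPM, THC over vehicle, over 24 THC and 32 vehicle cells with 95% counting intervals, and red circles are the values without the richest cell of each library (Socs2 has none, since 1 THC cell held all 15 of its UMIs there). Dotted lines mark 2-fold, and the circles of Gm42418 and Cxcl10 lie far from their points.

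Across the 19 gene lists the libraries were close for the receptor apparatus. Of the genes with at least 10 UMIs, 23 of 165 list genes were at least 2-fold higher in the THC library (13.9%) and 15 lower (9.09%), beside 8.16% and 10.9% of all such genes. The 11 measured genes of the T cell receptor and CD3 list had a median log2 ratio of -0.10, and none was 2-fold apart. The median over all genes with at least 10 UMIs was -0.06. Thy1 (49 and 59 UMIs), Trac (22 and 19) and Cd2 (26 and 42) lay at -0.10, 0.38 and -0.53. Of the 12 proximal signalling genes, whose median was -0.03, only the adaptor Lcp2 was 2-fold apart, with 6 and 17 UMIs. The kinases Lck and Zap70 lay at -0.07 and 0.02. The 9 MHC class I genes had a median of 0.14 with none past 2-fold, and H2-K1 (350 and 410 UMIs) and B2m (194 and 229) lay at -0.06 and -0.07.

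The cytotoxic and natural killer list held more genes higher than lower in the THC library. Of 12 measured genes, 10 were higher and 2 lower, 5 were at least 2-fold higher and 0 lower, and the median was 0.31. The 5 were Ifng, the cytokine interferon-gamma, with 17 UMIs in 5 cells against 1, Ccl4 with 20 in 2 cells against 2, Gzmb with 13 in 3 cells against 3, Klre1 with 12 in 4 cells against 3, and Xcl1. The abundant members lay near 0, with Ccl5 at 239 and 253 UMIs (0.08, -0.18 to 0.34), Nkg7 at 35 and 42 (-0.10) and Ctsw, a cathepsin of cytotoxic cells, at 38 and 41 (0.06). Single THC cells held much of the 5 genes that were at least 2-fold higher. The T cell of 11620 UMIs held 54 of the 87 Xcl1, 6 of the 12 Klre1 and 4 of the 13 Gzmb UMIs. The innate lymphoid-like cell of 2994 UMIs held 12 of the 20 Ccl4 and 7 of the 13 Gzmb UMIs. The T cell of 3143 UMIs held 8 of the 17 Ifng UMIs. In T cells alone 5 of 9 were higher and 4 lower.

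The cell cycle list had the highest median, 2.26 over 4 genes, and rested on 1 cell. The T cell of 11620 UMIs held 89 of the 149 THC UMIs of the list, including 10 of the 13 UMIs of Stmn1. Among type 2 genes, Il13 had 65 UMIs against 1 (6.19), of which 58 lay in 1 cell, Il4 had 57 against 23 (1.48) and 0.19 without the richest cells, and Il5 had 39 against 60 (-0.46). Gata3 (38 and 36 UMIs) and Rora (67 and 69) lay at 0.24 and 0.12. For Gata3, 1 THC T cell held 17 of the 38 UMIs and 1 vehicle cell 15 of the 36.

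Most genes of the regulatory and residence lists were lower in the THC library over the 56 cells, and in T cells alone their balance was closer to even. Of 8 regulatory T cell genes 6 were lower, with a median of -0.27, and the 2 past 2-fold were Ctla4 and Izumo1r, the folate receptor 4 of regulatory cells, with 5 and 19 UMIs. Of 12 residence and trafficking genes 9 were lower (median -0.44), and those past 2-fold were the chemokine receptor Cxcr3, with 2 and 9 UMIs, and the egress-linked receptor S1pr4, with 3 and 12. In T cells alone 3 regulatory genes were higher and 4 lower (median -0.14), and 4 residence genes higher and 5 lower (median -0.11). Rgs1, a brake on chemokine receptor signals, had 134 and 166 UMIs (-0.14). Of 15 cytokine receptor genes only Stat5b, which relays interleukin-2 and interleukin-7 signals, was past 2-fold, with 4 UMIs in 4 cells and 24 in 14 (-2.42, -4.41 to -0.88). Among naive cell genes Ccr7 was lower, while Lef1 (13 and 6 UMIs) and Igfbp4 were higher, Igfbp4 with 13 UMIs in 2 THC cells and 0 in vehicle, which the floor of 3 UMIs puts at a log2 ratio of at least 2.28.

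Signalling lists were mixed. The 14 AP-1 and Egr genes had a median of 0.37, with Jun and Zfp36 at least 2-fold higher and Fosl2 and Atf3 lower, and Jun lay at 1.85, and at 0.78 without the richest cells. Junb, the most abundant, had 363 and 368 UMIs (0.15). Of 12 NF-kappaB genes only Rela was past 2-fold, while the inhibitor Nfkbia lay at -0.71 (48 and 88 UMIs). Of 11 heat shock genes Hspa1a was higher and the mitochondrial chaperone Hspd1 lower, with 10 and 33 UMIs, and Hspa8 (284 and 268) lay at 0.25. The 7 interferon-stimulated genes had a median of 0.63 and a mean of -0.03, with Ly6a higher and Ifi27l2a and Irf1 lower.

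Of the activation and inhibitory receptors, 3 of 9 were at least 2-fold higher, Cd69, Nr4a1 and Cd160, and the inhibitory receptor Pdcd1 lay at -0.67 with 19 and 34 UMIs. Of 4 type 3 genes Tnfsf11 was higher (15 and 7 UMIs) and Ltb lower. Of 4 glucocorticoid-responsive genes Ddit4 was higher (9 and 3 UMIs), and Tsc22d3 lay at -0.88. Of 2 gamma-delta genes Trdc was lower, with 2 and 11 UMIs, 6 of which lay in the vehicle innate lymphoid-like cell named above.

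**Figure D5:**
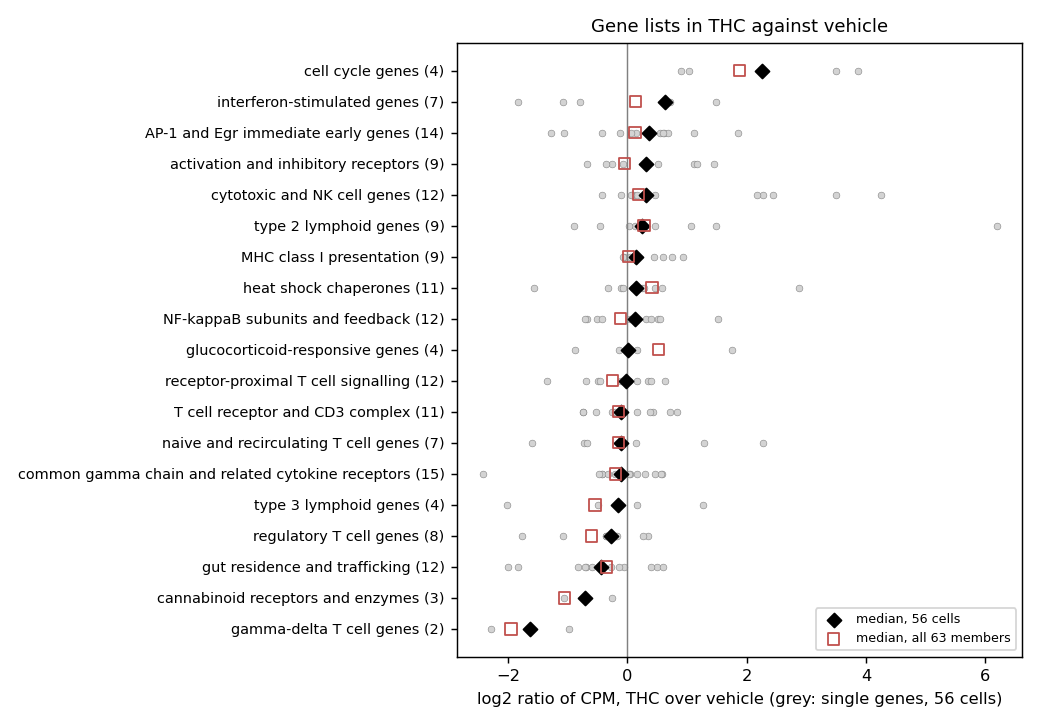
For each gene list, with its number of measured genes in brackets, grey points are single genes and the black diamond is their median log2 ratio, THC over vehicle, over 56 cells, and the red square is the median over all 63 members. Most medians lie within 1 log2 unit of 0, and the cell cycle and gamma-delta lists, with 4 and 2 genes, lie outside it.

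The cannabinoid receptor genes Cnr1 and Cnr2 were not detected in the members. Both had 0 UMIs in both libraries, which allows up to 28.9 CPM in the 24 THC and 25.7 CPM in the 32 vehicle members. Of the cannabinoid list, 3 of 11 genes had at least 10 UMIs: Gpr55, a receptor for lysolipids, with 6 and 11 UMIs (-0.71), Gpr18 with 6 and 8 (-0.25), and the ion channel Trpv2, the one past 2-fold, with 3 and 7 (-1.06).

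The MHC class II-rich barcodes moved the comparison over all 63 members. With them the 10 highest genes included genes of myeloid cells: Tgfbi with 44 and 7 UMIs (2.50), the cytokine Il1b with 59 and 11 (2.27), the complement gene C1qb with 145 and 39 (1.74) and the antigen-presenting H2-Aa with 641 and 182 (1.66). The 10 also held Hspa1a (2.99), the tubulin gene Tuba1b (2.88) and Vim (1.49). The THC library held 4 of these barcodes with 49761 of the 153690 UMIs of its members, and the vehicle library 3 with 21594 of 138177. Among genes lower after THC, Ccr7 lay at -1.91, Ltb at -1.80 and Gimap4 at -1.48 over all members.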

How the data were processed

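Per the file headers, the deposited matrices hold raw UMI counts per gene and barcode, which the authors made with Cell Ranger 3.0.2. Per the submitters' processing notes, bcl2fastq and Seurat were used too (no versions). The genome build, like the annotation, remains not given in the sources used here. In all, 31053 genes are listed. Each library was read through the same limits, and counts were summed over cells per library with Python 3.11.15, numpy 2.4.6, scipy 1.17.1 and pandas 2.3.3. Values are CPM of these sums and their log2 ratios with exact conditional Poisson 95% intervals. A gene at 0 was set to 3 UMIs for bounds. Called means at least 2-fold (4-fold in both libraries for members against other cells). Total UMIs were 4418882 in the THC and 5692678 in the vehicle cells.

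Named genes were, from each list, up to 4 by total UMIs and those called; the 10 highest and 10 lowest in THC against vehicle by the interval bound nearest 0 without the richest cell of each library, passing a free-RNA guard of 20% of the CPM in other gated cells; the 15 leading genes against other cells; up to 10 per side of T against innate lymphoid-like cells; and lineage genes. Not all are printed. The members, lists and rule were chosen with earlier results of these data known. Exceptions are cell divisions by Ccl5, Il5, Foxp3, Ccr7 and Tyrobp or Fcer1g, and the alternative without MHC class II-rich barcodes, added after seeing the data. Promoter sequences are from RefSeq (GRCm38.p6), matched by symbol, 3 of 3.

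The counting script was tested on simulated data for THC against vehicle: of 200 genes changed 4-fold among 1348, 99.5% were called, as were 3.5% of unchanged genes. The simulated sums held counting error only, with no spread between cells or libraries. The 3.5% is therefore not the rate of false calls in the real members. Alternatives were TMM factors from edgeR 4.0.16 in R 4.3.3, other mitochondrial and count limits, thinning to 1000 UMIs, T cells alone, and doublet removal with scrublet in scanpy 1.11.5.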

Additional observations from a re-analysis of the deposited data

How the results depend on the processing

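With 1 library per group, only counting error is covered, and differences between mice or preparations cannot be told apart from the treatment. No paired analysis was possible because each group had 1 library and the labels carry no replicate numbers. The share of members was 11.1% (THC) and 8.1% (vehicle) under a mitochondrial limit of 5%, and 2.74% and 2.87% after thinning to 1000 UMIs. Genes at least 2-fold apart between THC and vehicle, 120 over all members, were 72 in T cells alone and 45 there without their 1 MHC class II-rich barcode, 64 without all 7 such barcodes (63 with TMM scaling too), 11 after thinning and 800 when genes from 10 UMIs were measured. The number of measured genes changed with these settings, so the counts cannot be compared as shares. Without the MHC class II-rich barcodes, 3062 genes were measured from 10 UMIs and 919 from 30 UMIs. T against innate lymphoid-like counts were 45 and 77 without MHC class II-rich barcodes. Il1b (-0.26) and C1qb (-0.42) changed sign after thinning, Ccl6 (-0.10) in T cells alone and H2-Eb1 (-1.16) without MHC class II-rich barcodes. For Ccl6 and H2-Eb1 the alternative leaves out the barcodes that held most of their UMIs; for the others the cause was not tested. Of the counts and shares, 71 values stayed and the 12 above moved. Of 339 values of single genes under the alternatives, 7 had the other sign, the 4 above among them. Of 205 list medians, 30 had the other sign, among them residence (-0.35 over all members, 0.22 in T cells, 0.23 after thinning), type 2 genes (0.28, and -0.80 in T cells), proximal signalling (-0.25, and 0.32 after thinning) and glucocorticoid-responsive genes (0.52, and -0.67 from 30 UMIs). Depth is a limit: the members had medians of 3807.5 and 3506 UMIs, so a gene missing from a cell may be undetected.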
